A study of Mus musculus with 4 samples.

Results

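*Hexa*, *Lamp2* and *Gpnmb*, 3 genes of lysosomal proteins, were taken by symbol from the authors' deposited table of 1577 genes, which lists the genes changed between mESCs treated with Go6983 and NT mESCs. The treated group was 46C mESCs, a mouse ESC line that carries a Sox1-GFP reporter, given 5 μM Go6983, an inhibitor of PKC, for 24 h in medium with serum (2 samples). The NT group was 46C mESCs kept in the same kind of medium without Go6983 (2 samples). Total RNA was sequenced. All 4 samples come from 1 cell line, and whether the samples of a group were separate cultures, whether LIF was present and whether the NT cells received the solvent is not stated in any source used here. The table holds no gene with an absolute log2 fold change under 1.00, so it was already selected on the comparison described here. The 3 genes were in turn picked for their values in these samples. Their levels and fold changes are therefore a description, and no test of them is given.

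Lysosomes are acidic organelles in which hydrolases break down lipids, glycans and proteins that arrive by endocytosis or autophagy. Their enzymes are made in the endoplasmic reticulum and sorted through the Golgi, and their membrane is protected by a dense coat of glycoproteins. Transcription factors of the MiT/TFE family are known to raise many lysosomal genes together, by binding an E-box in their promoters. *Hexa* encodes the α subunit of β-hexosaminidase A, the hydrolase that removes the terminal sugar of a ganglioside and whose loss causes Tay-Sachs disease in humans. *Lamp2* encodes a major glycoprotein of the lysosome membrane, which acts in the fusion of autophagosomes and, in 1 splice form, as the receptor of chaperone-mediated autophagy. *Gpnmb* encodes a transmembrane glycoprotein of melanosomes and lysosomes, best known from pigment cells, osteoclasts and macrophages.

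The bases just upstream of the 3 genes are shown because the 3 genes were chosen together, and because the letters that MiT/TFE factors are known to bind can be looked for in them. They run over 200 bases that end just before the RefSeq start of each gene (GRCm38.p6). Capitals mark a CCAAT box (CCAAT, or ATTGG on the other strand) or a GC box (GGGCGG, or CCGCCC on the other strand).
*Hexa*, chr9:59539340-59539539, plus strand: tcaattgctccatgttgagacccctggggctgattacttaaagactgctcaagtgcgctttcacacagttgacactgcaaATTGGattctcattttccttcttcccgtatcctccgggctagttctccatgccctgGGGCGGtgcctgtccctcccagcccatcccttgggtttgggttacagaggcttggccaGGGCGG
*Lamp2*, chrX:38456461-38456660, minus strand: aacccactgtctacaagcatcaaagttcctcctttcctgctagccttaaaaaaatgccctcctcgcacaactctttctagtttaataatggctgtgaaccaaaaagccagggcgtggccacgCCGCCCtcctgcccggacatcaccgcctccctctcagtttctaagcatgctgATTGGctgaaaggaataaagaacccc
*Gpnmb*, chr6:49036318-49036517, plus strand: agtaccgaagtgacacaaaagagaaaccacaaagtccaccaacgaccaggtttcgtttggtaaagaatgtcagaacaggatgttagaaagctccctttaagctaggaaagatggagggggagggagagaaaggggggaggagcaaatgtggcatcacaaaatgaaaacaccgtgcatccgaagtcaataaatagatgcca

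From 250 bases before to 50 bases after the RefSeq start, none of the 3 genes held the E-box CACGTG, on either strand, nor the longer form TCACGTGA that contains it. The E-box was present in 7.15% of 32851 RefSeq promoters of this length, and the longer form in 0.974%. The M-box CATGTG, another sequence bound by MITF, was in none of the 3 windows and in 14.2% of all promoters, and the TATA box TATAAA was likewise in none of the 3 and in 13.6% of all. The windows of *Hexa* and *Lamp2* each held 1 CCAAT box, which 37.4% of promoters have, on the reverse strand 120 and 26 bases before the start. *Hexa* also held 3 GC boxes and *Lamp2* held 2, of which 1 in each gene lies beyond or across the start and outside the printed stretch, against 35.7% of promoters with at least 1. The *Gpnmb* window had neither kind of box. It held 1 match to the AP-1 letters TGACTCA, which were looked for only after the sequence had been read and which 5.20% of promoters contain. This stretch lies at the RefSeq start, and the GENCODE M21 start of the gene is further downstream, at 49036546. Capitals mark the AP-1 letters.
*Gpnmb*, chr6:49036518-49036540, plus strand: ggggcaagTGACTCAtgagcacg
The GC content of the windows was 53.3% for *Hexa* and 47.7% for *Gpnmb*, with *Lamp2* between them, beside a median of 52.7% over all promoters. A match of letters is no evidence of binding, and an absent match says only that the letters are not in this window.

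**Figure D1:**
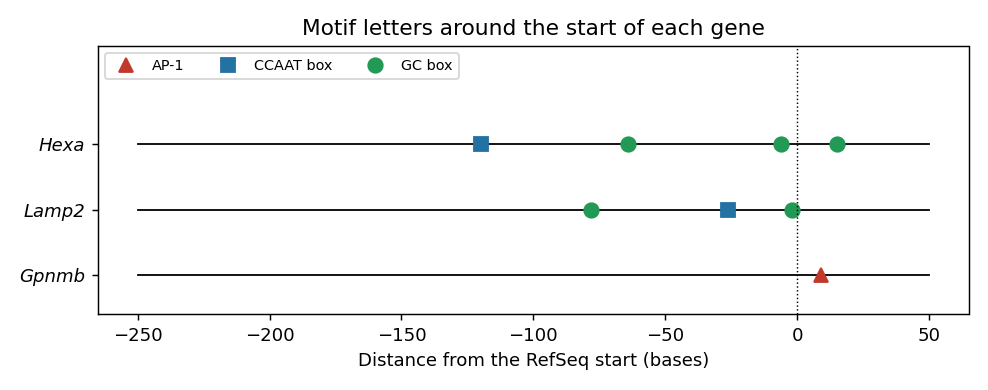
Positions of motif letters around the start of *Hexa*, *Lamp2* and *Gpnmb*, as the distance of the first base of each match from the RefSeq start (horizontal axis, in bases; dotted line, the start). *Hexa* has 3 GC boxes (circles) and 1 CCAAT box (square), *Lamp2* has 2 GC boxes and 1 CCAAT box, and *Gpnmb* has only 1 AP-1 match (triangle); no E-box, M-box or TATA box was found in the 3 windows.

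In what follows, a level is a normalized count, that is, the reads of a gene divided by 1 size factor per sample, recovered by undoing the log2 and the added 1 of the deposited values. In each sample 100% of the recovered values lay within 0.05 of a whole number of reads. The reads in the listed genes numbered between 859777 and 1054236 per sample, and the total depth is unknown. As RNA was taken from whole cultures, more RNA per cell and more cells that express a gene cannot be told apart. Over all 1577 genes, 68.9% were higher and 29.7% lower in Go6983-treated cells, by a change of at least 2-fold with a limma p, before adjustment, that did not exceed 0.05, which is how "higher" and "lower" are used below. These are 1086 and 469 genes. When the libraries were scaled to the median ratio of the listed genes, 177 were higher and 476 lower. That scaling makes the typical listed gene equal between samples. As most listed genes were higher with the authors' scaling, the fall from 1086 to 177 follows from which genes are listed. It is no test of whether those genes changed. The p-values come from genes already selected on these samples and may be too small, and they measure only the spread between these samples, which may be technical.

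*Hexa* (ENSMUSG00000025232), on chromosome 9 of GRCm38 from 59539540 to 59565109, had 6089 and 6877 normalized counts in the Go6983 samples, against 2983 and 3227 in the NT samples. Both Go6983 samples lay above both NT samples, and the lower Go6983 sample had 1.89 times the level of the higher NT sample. The means were 6483 ± 557 in Go6983-treated cells and 3105 ± 173 in NT cells (SD, n = 2 each). On the log2 scale the difference was 1.06, with a standard error of 0.10. Set against single NT samples, single Go6983 samples were between 0.92 and 1.20 higher in log2. These levels rest on 6523 and 6425 reads in the Go6983 samples, against 2999 and 3158 reads in the NT samples, so counting error is small beside the gap between groups. *Tmem202*, a gene on the opposite strand, overlaps the start of *Hexa* from 59539540 to 59539847. *Tmem202* was not analysed here, and no source used here says whether the counting used strand. At the level of protein and not RNA, the paper's mass spectrometry lists Hexa as higher after 24 h of Go6983 than with DMSO.

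*Lamp2* (ENSMUSG00000016534), on chromosome X from 38401357 to 38456454, had 3995 and 4412 normalized counts in the Go6983 samples, against 2051 and 2112 in the NT samples. The groups did not overlap, and the lower Go6983 sample was again 1.89 times the higher NT sample. The means were 4204 ± 295 in Go6983-treated cells and 2081 ± 43.4 in NT cells (SD, n = 2 each). On the log2 scale the difference was 1.01, with a standard error of 0.097. The 2 NT samples differed by 0.043 on the log2 scale, and the 2 Go6983 samples by 0.14. *Lamp2* lay close to the selection limit of the table: of the 1099 genes with a positive log2 fold change, 21 had a smaller one than *Lamp2* and 104 a smaller one than *Hexa*, and the smallest was 1.00. Genes on the other side of this limit were not analysed here. The value covers the whole gene, so the splice forms of *Lamp2*, which differ in their C-terminal tail, were not told apart.

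*Gpnmb* (ENSMUSG00000029816), on chromosome 6 from 49036546 to 49070929, had 324 and 474 normalized counts in the Go6983 samples, against 66.6 and 46.0 in the NT samples. The groups were far apart, and the lower Go6983 sample was 4.86 times the higher NT sample. The means were 399 ± 106 in Go6983-treated cells and 56.3 ± 14.6 in NT cells (SD, n = 2 each). On the log2 scale the difference was 2.80, with a standard error of 0.28. With 347 and 443 reads in the Go6983 samples, against 67 and 45 reads in the NT samples, this was also the gene of the 3 with the widest spread: its replicates differed by 0.55 (Go6983) and 0.53 (NT) on the log2 scale, against 0.18 and 0.11 for *Hexa*. The log2 difference of single pairs ran from 2.26 to 3.34. Of the 1099 genes with a positive log2 fold change, 130 had a larger one than *Gpnmb*.

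The size of these fold changes depends on how the libraries are scaled. Under median-ratio scaling, in which the typical listed gene is made equal between samples so that the selected list is centred on 0, all fold changes moved by a median of -1.10. The log2 fold change was then 1.69 for *Gpnmb*, -0.062 for *Hexa* and -0.11 for *Lamp2*. With the authors' scaling *Hexa* and *Lamp2*, at 1.06 and 1.01, lay below the median of all listed genes, 1.21, and near the selection limit. The change of *Gpnmb* exceeded the median listed gene under both scalings. Most listed genes were higher with the authors' scaling, so such a shift follows from which genes are listed. Why most of them were higher was not tested. Values under median-ratio scaling, here and below, therefore place a gene relative to the list and cannot tell whether it changed.

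**Figure D2:**
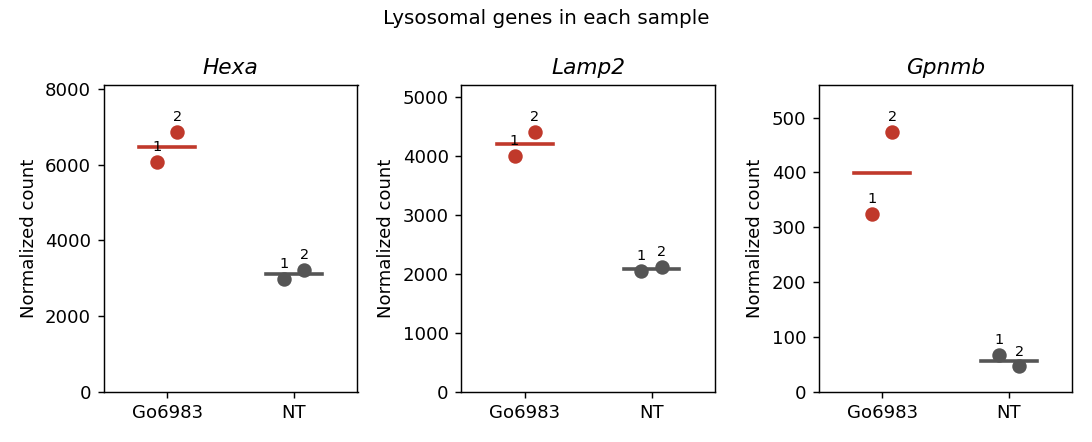
Normalized counts (vertical axes, from 0, each with its own range) of *Hexa*, *Lamp2* and *Gpnmb* in the 2 Go6983 samples (red) and the 2 NT samples (grey). Each numbered point is a replicate and each line a group mean. With the authors' scaling both Go6983 samples sit above both NT samples for the 3 genes, at 6089 and 6877 against 2983 and 3227 for *Hexa*. Median-ratio scaling, which centres the selected list by its construction, gave log2 fold changes of -0.062 for *Hexa* and -0.11 for *Lamp2*.

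To compare the genes with each other, normalized counts were divided by the length of the merged exons of each gene, which was 1.996 kb for *Hexa*, 9.552 kb for *Lamp2* and 6.514 kb for *Gpnmb*. Merged exons take in every annotated splice form, so a level per kb is understated for a gene expressed in shorter forms. Which forms the cells express is not known here, so ratios between genes depend on this choice of length. On this scale *Hexa* was the most abundant, with 3248 ± 279 per kb in Go6983-treated cells and 1555 ± 86.6 per kb in NT cells (SD, n = 2 each). *Lamp2* followed with 440.1 ± 30.8 per kb in Go6983-treated cells and 218 ± 4.54 per kb in NT cells, and *Gpnmb* had 61.3 ± 16.3 per kb in Go6983-treated cells and 8.64 ± 2.24 per kb in NT cells. The order *Hexa*, *Lamp2*, *Gpnmb* was the same in each of the 4 samples. The ratio of *Hexa* to *Lamp2* per kb was 7.29 and 7.46 in the Go6983 samples, against 6.96 and 7.31 in the NT samples, so for this ratio the groups overlapped. The ratio of *Lamp2* to *Gpnmb* was 8.41 and 6.35 in the Go6983 samples, against 21 and 31.3 in the NT samples, with no overlap. By mean level without regard to length, 41 genes of the table were above *Hexa*, 59 above *Lamp2* and 403 above *Gpnmb*.

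**Figure D3:**
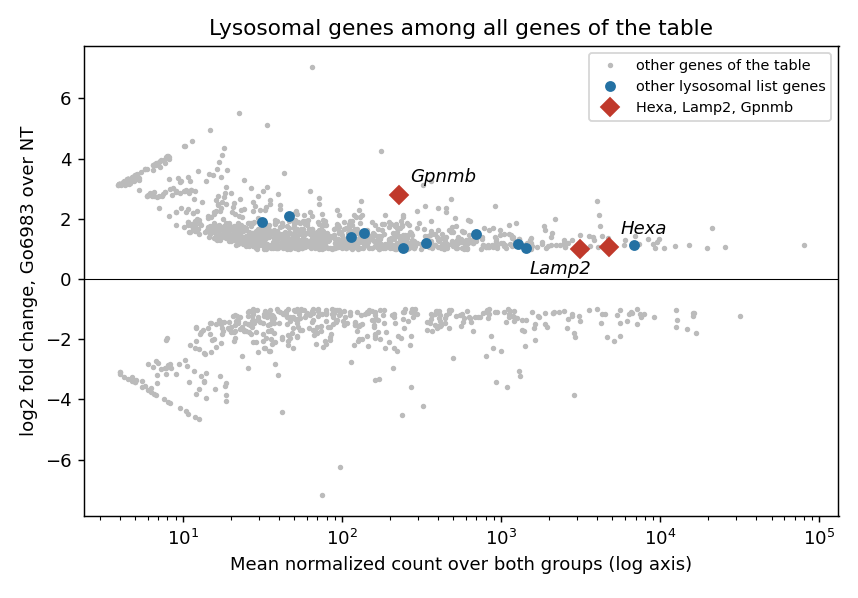
Log2 fold change of Go6983 over NT (vertical axis) against the mean normalized count of both groups (horizontal axis, log scale) for the 1577 genes of the table (grey), with *Hexa*, *Lamp2* and *Gpnmb* (red diamonds) and the 10 other listed lysosomal genes (blue). *Hexa* and *Lamp2* lie at the lower edge of the positive values, at 1.06 and 1.01, and *Gpnmb* lies well above it at 2.80. Under median-ratio scaling, which centres the selected list by its construction, these values were -0.062, -0.11 and 1.69. The empty band around 0 is where the authors' selection left no genes.

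Other genes of the lysosome were looked up from 6 lists written by function: enzymes, membrane proteins, the V-ATPase, MiT/TFE factors with mTORC1, autophagy, and sorting with fusion. Of the 233 genes in these lists that GENCODE M21 annotates, 13 were in the table (5.58%), a share close to the 5.45% of all annotated protein-coding genes. The other members were not analysed here, among them all 22 genes of the MiT/TFE and mTORC1 list and all 36 of the autophagy list. Beside *Hexa*, *Lamp2* and *Gpnmb*, whose values chose them, 10 genes remain. With the authors' scaling all 10 were higher in Go6983-treated cells and 0 were lower, also at a limma adjusted p under 0.05. Under median-ratio scaling their log2 fold changes ran from -0.11 for *Mfsd12* to 1.02 for *Hpse*. Over all 1577 genes 68.9% were higher by the first rule and 98.5% had an adjusted p under 0.05. The 2 groups of samples did not overlap for any of the 13, nor for 99.7% of all 1577 genes, and 69.6% of the 1577 had both Go6983 samples on top. As the table was selected and the 3 genes were chosen from it, these counts are a description. The 10 had a median log2 fold change of 1.30 and the 13 one of 1.19, beside 1.21 over all listed genes. With the 3 genes counted in, 2 of the 13 met the rule for higher under median-ratio scaling, beside 177 of all 1577 genes.

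Among the lysosomal enzymes, 7 of 67 were in the table, *Hexa* included. *Naglu*, the N-acetylglucosaminidase that acts on heparan sulfate, had 451 and 486 normalized counts in the Go6983 samples, against 199 and 212 in the NT samples. The replicates of *Naglu* lay close together, and its groups did not overlap. The sulfatase genes *Arsb* and *Arsg* had log2 fold changes of 1.05 and 1.53, the cathepsin gene *Ctsh* one of 1.40, and *Hpse*, the heparanase gene, one of 2.10. *Hpse* had the fewest reads of the group, with 90.6 and 62.1 normalized counts in the Go6983 samples, against 12.9 and 21.5 in the NT samples. At limma adjusted p-values of 0.00537 for *Arsb*, 0.00114 for *Arsg*, 0.00395 for *Ctsh* and 0.00448 for *Hpse* each was called. As the table was selected on this comparison, 98.5% of all 1577 genes had a limma adjusted p under 0.05, so these calls add little. With Go6983 replicate 1 and then Go6983 replicate 2 left out, the log2 fold change was 1.08 and 1.01 for *Arsb*. It was 1.21 and 1.60 for *Ctsh*, and 1.83 and 2.37 for *Hpse*. Such a fit leaves 1 Go6983 sample, so no p-value is given for it. *Gm2a*, the gene of the activator that presents the ganglioside to the enzyme, was not analysed here.

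Of 43 genes of lysosomal membrane proteins, 3 were in the table: *Lamp2*, *Gpnmb* and *Mfsd12*, which encodes a cysteine transporter of lysosomes and melanosomes. *Mfsd12* had 1881 and 1944 normalized counts in the Go6983 samples, against 981 and 912 in the NT samples. The log2 fold change of *Mfsd12* was 1.01 with a limma adjusted p = 0.000485, and -0.11 under median-ratio scaling. Of 25 V-ATPase genes, 1 was in the table, *Atp6v1c2*, an isoform of the C subunit with tissue-restricted expression. *Atp6v1c2* was scarce, at 44.8 and 53.5 normalized counts in the Go6983 samples, against 7.96 and 19.4 in the NT samples. Its limma adjusted p was 0.0127. With 1 sample left out, its log2 fold change of 1.89 ran from 1.29 (without NT replicate 1) to 2.48 (without NT replicate 2). Of 41 sorting and fusion genes, 2 were in the table. *Sorl1*, a sorting receptor that moves cargo between the Golgi and endosomes, had 9127 and 9625 normalized counts in the Go6983 samples, against 4448 and 4092 in the NT samples. *Ap3b2*, the neuronal isoform of a subunit of the AP-3 adaptor, had 1058 and 976 normalized counts in the Go6983 samples, against 333 and 396 in the NT samples. Their log2 fold changes were 1.14 and 1.48, with limma adjusted p-values of 0.000428 and 0.000446. Under median-ratio scaling, which centres the selected list by its construction, the values were 0.013 for *Sorl1* and 0.36 for *Ap3b2*.

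In the promoter windows of the 11 listed lysosomal genes that RefSeq supplied, *Hexa*, *Lamp2* and *Gpnmb* included, the E-box CACGTG was found in 2, *Naglu* and *Sorl1*, beside 7.15% of all promoters, and TCACGTGA in 0. A GC box was found in 9 of the 11, beside 35.7% of all promoters, and a CCAAT box in 4, beside 37.4%.

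*Gpnmb* is shared with pigment cells, and 4 of 20 genes of a melanosome and pigment list were in the table. *Trpm1*, a cation channel gene of melanocytes and retina, had 1335 and 1775 normalized counts in the Go6983 samples, against 294 and 279 in the NT samples, and differed by 2.42 on the log2 scale, with a standard error of 0.16 (limma adjusted p = 0.000388). *Kit*, a receptor tyrosine kinase gene that germ cells and blood progenitors express as well, differed by 1.06 on the log2 scale (limma adjusted p = 0.000428), and by -0.066 under median-ratio scaling. *Mlana*, a melanosome protein gene, was lower, with 67.2 and 63.2 normalized counts in the Go6983 samples, against 176 and 177 in the NT samples. *Gpr143* had 56.9 and 24.6 normalized counts in the Go6983 samples, against 10.9 and 21.5 in the NT samples, and did not pass (limma adjusted p = 0.0709). The 4 genes thus did not share a direction. The defining pigment enzyme genes *Tyr*, *Tyrp1* and *Dct* were not analysed here.

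*Gpnmb* is also a gene of macrophages, and 1 of 15 macrophage markers was in the table. This was *Trem2*, with 0 and 2.14 normalized counts in the Go6983 samples, against 22.9 and 30.7 in the NT samples, so it was lower where *Gpnmb* was higher. Of 10 fibroblast markers, *Col1a2* was in the table, at 78.4 and 82.4 normalized counts in the Go6983 samples, against 31.8 and 40.9 in the NT samples. The limma adjusted p of *Col1a2* was 0.0103. Its log2 fold change was 1.13, between 0.96 and 1.31 with 1 sample left out, and 0.033 under median-ratio scaling. Of 16 markers of extraembryonic endoderm 0 were in the table, and of 7 neural markers *Pax6* and *Neurod1* were, with log2 fold changes of -1.39 and -1.90. For *Pax6* the limma adjusted p was 0.00849, and the log2 fold change ran from -1.60 to -1.17 with 1 sample left out. The part of other cell types in the level of the 3 genes was not tested. Of 14 markers of pluripotent cells 4 were in the table, with summed levels of 88977 and 92466 normalized counts in the Go6983 samples, against 55513 and 55944 in the NT samples. These 4 were selected for change and did not share a direction, so their sum does not measure the share of pluripotent cells. The other markers were not analysed here. *Utf1* was lower, and *Nanog*, *Klf4* and *Tfcp2l1* were higher with the authors' scaling. Under median-ratio scaling, which centres the selected list by its construction, the log2 fold changes were -0.063 for *Nanog*, -0.11 for *Klf4* and 0.58 for *Tfcp2l1*. The paper reports that qRT-PCR bore out its RNA-sequencing result for *Nanog* and *Tfcp2l1*.

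**Figure D4:**
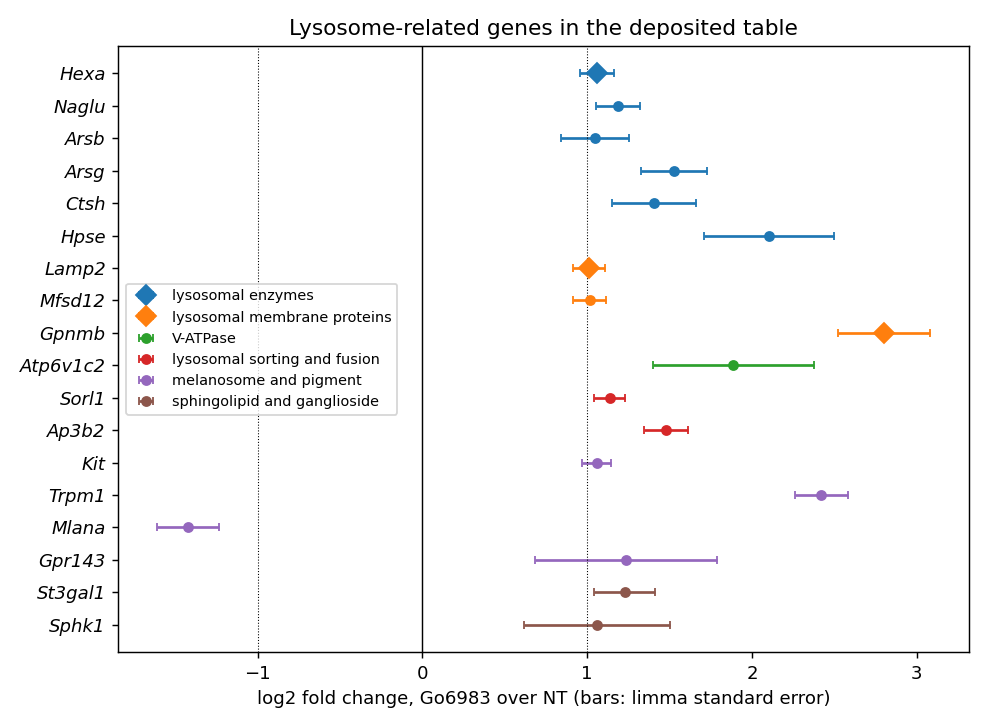
Log2 fold change of Go6983 over NT (horizontal axis; bars, limma standard error) for the genes of the lysosomal, melanosome and sphingolipid lists described here, coloured by list, with *Hexa*, *Lamp2* and *Gpnmb* as diamonds and dotted lines at 2-fold. The lysosomal genes drawn lie at or above 1.01 with the authors' scaling, and *Mlana* is at -1.42. Under median-ratio scaling, which centres the selected list by its construction, *Hexa*, *Lamp2*, *Arsb* and *Mfsd12*, like *Kit* and *Sphk1*, are below 0.

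*Hexa* acts in ganglioside turnover, and of 38 genes of sphingolipid and ganglioside metabolism outside the lysosome 2 were in the table. *St3gal1*, a sialyltransferase gene, had 218 and 247 normalized counts in the Go6983 samples, against 90.5 and 107 in the NT samples. Its log2 fold change was 1.23 (limma adjusted p = 0.00196), and between 1.10 and 1.35 with 1 sample left out. Under median-ratio scaling *St3gal1* was at 0.11. *Sphk1*, a sphingosine kinase gene, differed by 1.06 on the log2 scale, and by -0.027 under median-ratio scaling, and did not pass (limma adjusted p = 0.0568). Of the 9 genes of PKC, the kinases that Go6983 inhibits, *Prkch* was lower, at 106 and 80.3 normalized counts in the Go6983 samples, against 235 and 234 in the NT samples. *Prkcq* was higher but scarce, at 25.2 and 28.9 normalized counts in the Go6983 samples, against 10.9 and 6.13 in the NT samples (limma adjusted p = 0.0133). Its log2 fold change was 1.60, between 1.23 and 1.97 with 1 sample left out, and 0.56 under median-ratio scaling.

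The genes whose pattern was most like each of the 3 were sought among 893 genes whose mean reached 50 normalized counts, by the root mean square difference of the 4 log2 values after each gene was centred on its own mean. For *Hexa* these were *Ckb*, which encodes the brain form of creatine kinase, *Snhg7os* and *Farp1*, with differences of 0.018, 0.026 and 0.027 on the log2 scale. For *Lamp2* they were *Gm15541*, *Trf*, which encodes transferrin, and *Farp1*, with differences of 0.013, 0.022 and 0.023. *Farp1*, a guanine nucleotide exchange factor gene, was the only gene named for both, at 3214 and 3635 normalized counts in the Go6983 samples, against 1628 and 1672 in the NT samples. For *Gpnmb* the genes named by this rule include *Zfp46* and *Lrrc31*, at 0.22 and 0.24, so both followed *Gpnmb* less closely than *Ckb* followed *Hexa*. With 4 samples in 2 groups such likeness mostly says that fold changes were of similar size.

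The protein-coding genes next to the 3 on either side, *Arih1* and *Celf6* beside *Hexa*, *Atp1b4* and *Cul4b* beside *Lamp2*, and *Svs1* and *Malsu1* beside *Gpnmb*, were not analysed here. *Malsu1* is the nearest, 2866 bases beyond the end of *Gpnmb*, and the others lie between 12808 and 76820 bases away.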

How the data were processed

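RNA-sequencing of 46C mESCs gave 2 Go6983 and 2 NT samples, grouped by their labels. The authors deposited 1 table of selected genes with a log2 value per sample, their own group means, and a log2 fold change, p-value and adjusted p-value, of which only the log2 values per sample were used. Bowtie 0.12.2 and the build mm9 are named in the submitters' processing notes. For the counter, annotation and normalization tool, the entry is: not given in the sources used here. Levels were set by the authors' size factors, so a change in total RNA per cell is not seen. Symbols, coordinates and exon lengths came from GENCODE M21 (GRCm38), which matched 1572 of 1577 gene IDs, and promoters from RefSeq (GRCm38.p6).

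Group differences were estimated by limma 3.58.1 (R 4.3.3; eBayes with a mean trend) from the deposited log2(normalized count + 1) values of all 1577 genes, without filter or block, and adjustment over all of them followed Benjamini and Hochberg. On this scale the change of genes with few reads is understated. The step was tested on simulated counts. Replicates differed by more than counting error (chi-square per gene 7.33 for Go6983 and 9.75 for NT), so none was a copy. The genes and lists were chosen with earlier results of these data known. The named genes are the 3 genes, the list members and markers in the table, the 3 genes most like each in pattern and the adjacent genes. Some genes that this rule takes are counted but not reported here. The alternatives were other scalings, a pseudocount of 0.1, filters at 10 and 50 normalized counts, each replicate left out, a replicate block, limma without trend, limma-voom on the recovered reads and a call by adjusted p alone. Figures were drawn with matplotlib 3.10.9.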

Additional observations from a re-analysis of the deposited data

How the results depend on the processing

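The log2 fold changes of *Hexa* and *Lamp2* kept their direction under every alternative but median-ratio scaling over the listed genes, which gave -0.062 and -0.11. That of *Gpnmb* kept its direction under every alternative, and was 1.69 under median-ratio scaling. With each library divided by its total over the listed genes, *Hexa* was at 0.93 and *Lamp2* at 0.88. With 1 replicate left out, the values ran from 0.97 to 1.15 for *Hexa*, 0.94 to 1.08 for *Lamp2* and 2.53 to 3.08 for *Gpnmb*. Of the 13 lysosomal genes, with *Hexa*, *Lamp2* and *Gpnmb* counted in, 13 met the rule for higher, 2 did so under the median ratio and between 8 and 12 with a replicate left out, and 0 were lower under any alternative. Over all genes, 1086 were higher, against 714 with the filter at 50 normalized counts, 177 under the median ratio, and from 614 to 863 with a replicate left out. At an adjusted p under 0.05, limma called 1554 genes and limma-voom on the recovered reads 1555.

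Under the median ratio, which centres the selected list by its construction, the log2 fold changes that changed sign were also those of *Nanog* (-0.063), *Kit* (-0.066), *Arsb* (-0.071), *Mfsd12* (-0.11), *Klf4* (-0.11), *Ckb* (-0.077), *Snhg7os* (-0.016), *Farp1* (-0.072), *Gm15541* (-0.094) and *Trf* (-0.12), and of *Sphk1* (-0.027), which passed under neither scaling.

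No shared effect of the replicate number was seen: the deviations of the samples numbered 1 correlated with r = 0.032 across the 1577 genes. This cannot tell whether samples of the same number shared a culture or batch, which no source used here states. With the replicate number as a block, 13 lysosomal genes and 1073 genes in all were higher, the 3 fold changes were the same, and *Sphk1* passed (limma adjusted p = 0.0306), as it did with the filter at 10 normalized counts (limma adjusted p = 0.0491). The low counts of *Gpnmb* in NT cells, 67 and 45 reads, limit the precision of its fold change.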
